A study of Mus musculus with 15 samples.

Results

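IP14D-101 is a mouse induced pluripotent stem (iPS) cell line, and its gene expression was compared here with that of mouse embryonic fibroblasts (MEF). The comparison took the 3 arrays of IP14D-101 and the 3 of MEF, which are 6 of the 15 arrays in the series, with all 45037 probe sets that are not array controls and the 18193 genes they name. Per the labels, IP14D-101 has the C57x129S2 background, and MEF have the B6D2F1 background. The labels describe these MEF as the source of iPS cells, but their background is not that of IP14D-101, so in every difference below cell type and background cannot be told apart. All iPS cells had been grown on feeder MEF treated with mitomycin C, in medium with LIF at 1000 u/ml and either serum or a serum replacement. The labels do not say which medium IP14D-101 had, which factors were used to make it, or whether feeders were removed before RNA was taken. A line of embryonic stem (ES) cells, CL11, and 2 further iPS lines, IP14D-1 and IP20D-3, have 3 arrays each and the B6D2F1 background. They were used only where IP14D-101 is set against other pluripotent lines. CL11 also had LIF at 1000 u/ml, and no LIF is given for MEF. In the differences from MEF, LIF and medium therefore cannot be told apart from cell type either. Replicates are described as biological, but no animals or cultures are named, so p values measure the spread between these samples, which may be technical.

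Fibroblasts are mesenchymal cells: they secrete collagen and other matrix, grip it through integrins and pull on it with actin stress fibres. Pluripotent stem cells grow as compact epithelial-like colonies held by E-cadherin, divide fast with a short first gap phase, and keep their state through a circuit in which the transcription factors Oct4 (encoded by Pou5f1), Sox2 and Nanog bind their own and each other's genes. LIF acts through a receptor of Lifr and Il6st to keep mouse pluripotent cells from differentiating. A comparison of the 2 cell types shows both sets of genes, those that the fibroblast uses and those that the pluripotent cell uses.

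Levels are given as log2(signal + 16) after each array was scaled to 1 trimmed mean. A level of 11.06, or a signal of 2121.8, was taken as background, since 95% of the values of 44 olfactory receptor probe sets lay below it. For a gene whose dimmer group had a mean under this level, arrays under it were raised to it and the fold is given as "at least". A gene was called higher or lower where the limma fit gave an adjusted p under 0.05. The arrays of IP14D-101 correlated with each other at 0.916 to 0.932, those of MEF at 0.940 to 0.942, and arrays of different groups at 0.775 to 0.798. The share of genes above background was 62.4% to 63.2% on IP14D-101 arrays and 61.4% to 65.1% on MEF arrays (exact 2-sided permutation p = 0.800, where 3 against 3 cannot go below 0.1). Before scaling, the trimmed means ran from 11198.1 to 13870.8 in IP14D-101 and from 16746.5 to 20466 in MEF, with no overlap.

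The identities of both groups were checked on marker lists. All 12 markers of pluripotent stem cells were higher in IP14D-101, and 11 of them lay below background in MEF. Of 17 fibroblast markers 16 were lower in IP14D-101, 13 of them below background there, and their summed signal was 196749 to 227561 in IP14D-101 against 6821974 to 7570377 in MEF. The exception was Pdgfra, which encodes a receptor for platelet-derived growth factor. Its levels were 14.07, 13.98 and 13.82 in IP14D-101 and 14.46, 14.02 and 14.82 in MEF, and the groups overlapped (adjusted p = 0.452, limma). In such bulk samples fewer cells of a type and less RNA per cell cannot be told apart.

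In all, 5447 of 18193 genes were higher in IP14D-101 (29.9%) and 4404 were lower (24.2%), by limma with Benjamini-Hochberg adjustment. Counts of called members in the gene lists below are to be read beside these shares. The arrays of the groups did not overlap for 60.0% of genes. Over probe sets, 9832 (21.8%) were higher and 10746 (23.9%) lower. At least 8-fold changes were found for 325 genes upward (1.79%) and 519 downward (2.85%), and at least 32-fold changes for 57 and 116. A further count describes genes read on 1 side only: 1025 genes called higher were below background in MEF, and 933 called lower were below background in IP14D-101. The split between higher and lower calls depended on scaling: 55.3% of called genes were higher, against 67.6% with arrays scaled to their median, 59.8% after quantile normalization and 33.4% without scaling. The median difference over all genes was 0.05 log2, and these settings moved it to 0.39, 0.21 and -0.51, so small differences are read against that shift. Of 5832 called genes with more than 1 probe set, 3966 had another probe set called the same way and 308 had 1 called the opposite way.

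**Figure D1:**
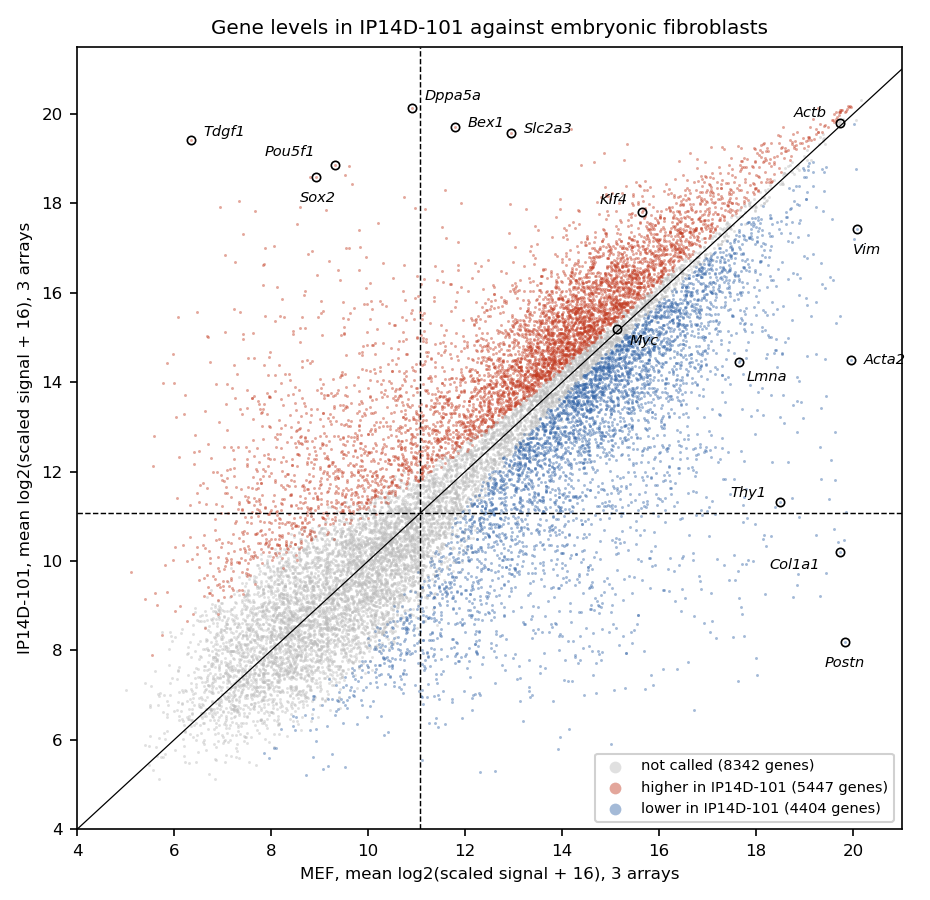
Mean level of each of 18193 genes in MEF (horizontal axis) and IP14D-101 (vertical axis), as log2(scaled signal + 16) over 3 arrays each, coloured by call, with dashed lines at the background level of 11.06 and a solid line of equality. Tdgf1, Dppa5a, Pou5f1 and Sox2 sit at the upper left, below background in MEF, Postn and Col1a1 at the lower right, below background in IP14D-101, and Actb and Myc near the line.

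The transcription factors of the pluripotent state were among the largest gains. All 19 measured core and naive pluripotency factors were higher in IP14D-101, and 12 of them were below background in MEF (median 7.19 log2, against 0.05 over all genes). All 21 measured members of a second list of pluripotency-associated genes were higher too (median 6.83 log2), 15 of them below background in MEF. These lists hold genes long used to describe pluripotent cells, and the counts are the same under the 3 other scalings.

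Pou5f1, which encodes Oct4, had levels of 18.84, 18.79 and 18.99 on the 3 IP14D-101 arrays and 8.90, 10.24 and 8.80 on the MEF arrays. Sox2, the partner of Oct4 on DNA, had 18.59, 18.60 and 18.55 against 9.27, 8.67 and 8.85. Nanog, a homeodomain factor that holds cells in the naive state, had 18.44, 18.47 and 18.39 against 9.62, 9.28 and 10.11. All 3 were bright on every IP14D-101 array and below background on every MEF array, which made them at least 224-fold, at least 183-fold and at least 166-fold higher (adjusted p = 1.4e-16, 1.4e-20 and 3.5e-19). Mycn, a Myc family factor of stem cells, was at least 136-fold higher, with levels of 18.08, 18.08 and 18.30 in IP14D-101 and every MEF array below background. Zfp42, or Rex1, a zinc finger gene that marks the naive state, was at least 128-fold higher, and Sall4, a partner of Oct4, at least 109-fold higher. The other factors used in early reprogramming work behaved otherwise. Klf4 was bright in both groups, at 17.85, 17.92 and 17.67 in IP14D-101 and 15.79, 15.45 and 15.69 in MEF, and rose by 2.17 ± 0.1 log2 (standard error here and below; adjusted p = 1.6e-12). Myc had 15.10, 15.19 and 15.33 against 15.08, 15.17 and 15.16, with overlapping groups and a difference of 0.07 ± 0.18 (adjusted p = 0.797), or -0.50 without scaling (adjusted p = 0.0293).

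The promoters of 3 of these risers are shown because each holds an exact match to the core of the octamer motif to which Oct4 binds, and because the Nanog promoter pairs it with a SOX core. They are RefSeq promoters (GRCm38.p6) of 250 bases before to 50 after the start, 5′ to 3′ on the gene's strand. Nanog lies at chr6:122707239-122707538 (plus strand), Sox2 at chr3:34649745-34650044 (plus strand) and Zfp42 at chr8:43306960-43307259 (minus strand). Capitals mark the octamer core TTTGCAT, or ATGCAAA where it is read on the opposite strand, and in Nanog also the SOX core ACAATG.
Nanog: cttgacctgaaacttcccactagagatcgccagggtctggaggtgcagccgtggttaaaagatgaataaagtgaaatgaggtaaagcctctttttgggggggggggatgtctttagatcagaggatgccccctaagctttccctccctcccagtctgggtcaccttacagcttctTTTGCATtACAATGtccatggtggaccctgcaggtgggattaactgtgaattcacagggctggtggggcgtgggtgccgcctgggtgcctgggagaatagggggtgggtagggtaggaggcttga
Sox2: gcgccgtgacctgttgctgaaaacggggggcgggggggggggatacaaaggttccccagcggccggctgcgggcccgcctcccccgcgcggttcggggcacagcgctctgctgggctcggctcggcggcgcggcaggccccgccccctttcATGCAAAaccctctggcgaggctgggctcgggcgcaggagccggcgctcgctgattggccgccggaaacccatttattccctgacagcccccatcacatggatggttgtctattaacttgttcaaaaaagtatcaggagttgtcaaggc
Zfp42: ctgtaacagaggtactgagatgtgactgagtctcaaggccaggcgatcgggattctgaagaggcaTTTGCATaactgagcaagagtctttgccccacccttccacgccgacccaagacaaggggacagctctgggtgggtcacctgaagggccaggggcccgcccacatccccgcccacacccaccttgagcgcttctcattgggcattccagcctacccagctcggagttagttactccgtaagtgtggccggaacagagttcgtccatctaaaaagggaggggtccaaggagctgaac
In Nanog the octamer core covers bases -75 to -69 from the start and the SOX core bases -67 to -62. The octamer core covers bases -99 to -93 in Sox2 and -185 to -179 in Zfp42. Searched on both strands, it was found in 4.59% of all 27025 RefSeq promoters and in 3.76% of the 14452 promoters of measured genes. Among genes at least 32-fold higher in IP14D-101 it was found in 5 of the 40 with a promoter in the table, of 57 in all (12.5%), namely Apela, Mageb16, Nanog, Sox2 and Zfp42, of which Apela and Mageb16 were singled out after their values were seen. Among genes at least 8-fold higher it was found in 14 of 242, of 325 in all (5.79%). A match describes these letters in this window only.

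The largest gains went beyond the transcription factors. Tdgf1, the Nodal co-receptor Cripto, had 19.38, 19.46 and 19.41 in IP14D-101 against 6.49, 5.92 and 6.59 in MEF and was at least 327-fold higher. Dppa5a, an RNA-binding protein of pluripotent cells, had 19.96, 20.22 and 20.20 against 10.47, 10.84 and 11.39 and was at least 496-fold higher, the largest rise by this measure. Both were uniform across the IP14D-101 arrays, and 1 MEF array of Dppa5a lay above background. Bex1, a small signalling adaptor, had 19.77, 19.75 and 19.65 against 11.80, 11.79 and 11.79 and was 244-fold higher, here measured on both sides. L1td1, which derives from a LINE-1 element, Lin28a, which blocks let-7 maturation, and Dnmt3l, a cofactor of de novo DNA methylation, were at least 184-fold, at least 115-fold and at least 115-fold higher. Dppa2, a chromatin protein of the early embryo, was at least 88.7-fold higher.

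A pair of metabolic genes stood among the 15 largest rises. Gsta4, a glutathione transferase that acts on lipid peroxidation products, had 18.84, 18.74 and 18.91 against 10.83, 9.31 and 8.71 and was at least 218-fold higher. Upp1, uridine phosphorylase, had 18.62, 18.46 and 18.83 against 7.73, 10.59 and 10.28 and was at least 191-fold higher. In MEF all 3 arrays of each lay below background, with a wider spread there than in IP14D-101.

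The brightest risers, ranked by their level in IP14D-101 among genes at least 4-fold higher, were Dppa5a, Bex1, Mtm1, Slc2a3, Tdgf1, Chchd10, Trim28 and Mkrn1. Slc2a3, the high-affinity glucose transporter GLUT3, rose by 6.62 ± 0.084 log2 to a level of 19.57 ± 0.11 (SD, n = 3). Chchd10, a mitochondrial protein, was 15.9-fold higher, Mkrn1, a ubiquitin ligase, 19.2-fold, and Trim28, the corepressor that silences retroelements, 4.61-fold. Mtm1, a phosphoinositide phosphatase, rose by 5.49 ± 0.1 on its brightest probe set, but of its 3 probe sets 2 were called higher and 1 lower, so its direction differs with the probe set. The same holds for Utf1, a chromatin factor of pluripotent cells, with 2 of 3 probe sets higher and 1 lower.

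**Figure D2:**
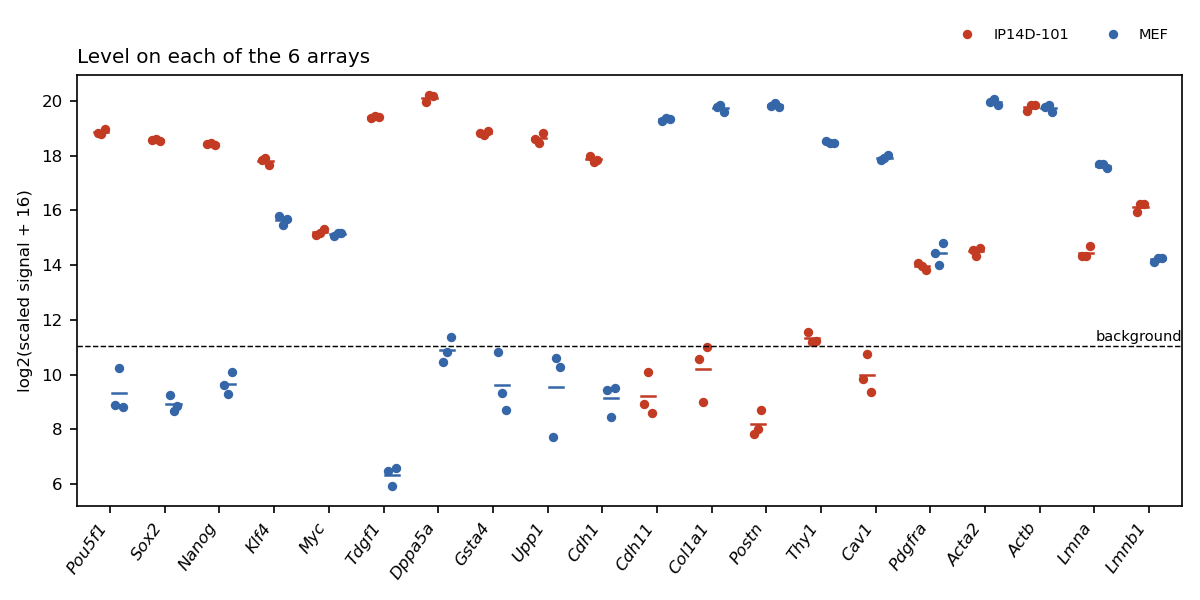
Level of 20 genes on each of the 6 arrays, as log2(scaled signal + 16), in IP14D-101 and MEF, with short lines for the means of 3 arrays and a dashed line at background. Groups are far apart for the pluripotency and fibroblast genes, such as 18.87 ± 0.1 against 9.32 ± 0.8 for Pou5f1 (SD), and overlap for Myc, Pdgfra and Actb.

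Genes of the fibroblast matrix made up most of the largest losses. Col1a1 and Col1a2 encode the chains of type I collagen. Col1a1 had 19.78, 19.87 and 19.58 in MEF and 10.56, 9.01 and 11.01 in IP14D-101, and Col1a2 had 19.90, 19.96 and 19.70 and 10.81, 11.58 and 10.90. Col1a1 was at least 410-fold lower and Col1a2 433-fold lower, where Col1a2 kept 1 of 3 IP14D-101 arrays above background. Postn, or periostin, a matrix protein that binds integrins, had 19.83, 19.92 and 19.78 in MEF and 7.84, 8.01 and 8.69 in IP14D-101, and was at least 440-fold lower, the largest fall by this measure. Col3a1 and Col5a2, fibrillar collagens that share fibres with type I, were at least 433-fold and at least 384-fold lower. Tnc (tenascin), Fbln2 and Fbln5 (fibulins of elastic fibres) and Bgn (the proteoglycan biglycan) were at least 288-fold, 281-fold, at least 209-fold and 226-fold lower. Prss23, a serine protease, Ccn4, a matricellular protein, and Ptn, the growth factor pleiotrophin, were at least 324-fold, at least 223-fold and at least 193-fold lower. The 15 largest rises and falls were taken only from called genes whose arrays did not overlap between the groups.

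Enzymes that build and cut collagen fell with it. Of 20 collagen processing genes 17 were lower and 1 higher (median -2.85 log2). Lox, which cross-links collagen and elastin, had 19.43, 19.53 and 19.39 in MEF against 9.90, 10.66 and 8.62 in IP14D-101 and was at least 335-fold lower. Its relatives Loxl1 and Loxl3 fell by 5.96 ± 0.14 and 5.87 ± 0.19 log2, and Bmp1, which cuts the procollagen tail, was at least 32.6-fold lower. Pcolce2, an enhancer of that cut, was the member that rose, by 1.09 ± 0.17. Of 31 matrix proteases and inhibitors 24 were lower and 1 higher (median -3.41). Serpinf1 fell by 6.76 ± 0.15, Timp3 and Timp2, inhibitors of metalloproteases, by 5.75 ± 0.29 and 5.26 ± 0.15, and the aggrecanase gene Adamts5 and the plasminogen activator gene Plat were at least 62.2-fold and at least 42.7-fold lower. Dpp4, a membrane dipeptidase, went the other way, with 13.65, 13.59 and 14.02 in IP14D-101 against 9.65, 8.19 and 9.25 in MEF, at least 6.47-fold higher. Under median scaling and quantile normalization 3 members of this list were higher, not 1.

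The brightest fallers, by their level in MEF, were Lgals1, Vim, Sparc, Acta2, Col1a2, Postn, Col3a1 and Col1a1, and they did not fall to the same extent. Lgals1, or galectin-1, had 20.20, 20.29 and 20.04 in MEF and 16.96, 17.02 and 17.17 in IP14D-101, a fall of 3.12 ± 0.087 log2. Vim, the intermediate filament vimentin, fell by 2.66 ± 0.088 and Sparc, a collagen-binding glycoprotein, by 2.79 ± 0.1. These 3 remained far above background in IP14D-101, at 17.05 ± 0.11, 17.43 ± 0.12 and 17.21 ± 0.26 (SD), unlike Postn, Col3a1 and Col1a1.

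Mesenchymal transcription factors were lower as a group: 31 of 36 fell and none rose (median -3.57), with 21 below background in IP14D-101 against 2 in MEF. Snai2, which represses E-cadherin, had 17.52, 17.55 and 17.59 in MEF and 10.10, 10.07 and 10.26 in IP14D-101 and was at least 89.8-fold lower. Nfix, a nuclear factor I gene, Prrx1, of limb mesenchyme, Foxc2 and Twist2 were at least 83.7-fold, at least 63.3-fold, at least 24.9-fold and at least 21.4-fold lower. The 5 members not called included Hand2, Tcf21, Msx2 and Osr2. Hand2 differed by -0.91 ± 0.54, or -1.44 without IP14D-101 replicate 2, where it was called lower, and Msx2 by 0.01 ± 0.57.

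Nearly all contractile genes measured were lower. Of 31 actin and contractile genes 29 were lower and none higher (median -3.14), under median scaling 27 lower and 1 higher. The smooth muscle actins Actg2 and Acta2 had MEF levels of 18.88, 18.89 and 18.76 and 19.97, 20.06 and 19.86 and IP14D-101 levels of 10.53, 9.97 and 7.90 and 14.54, 14.34 and 14.63. Actg2 was at least 220-fold lower, and Acta2, still above background in IP14D-101, 44.0-fold lower. Cnn1 (calponin) and Mylk (myosin light chain kinase) were at least 92.9-fold and at least 34.7-fold lower, and Myl9, a myosin light chain, 53.9-fold lower. The cytoplasmic actin gene Actb was not called, with 19.65, 19.86 and 19.86 against 19.77, 19.85 and 19.58 (0.05 ± 0.086, adjusted p = 0.661), and nor was the tropomyosin gene Tpm3 (-0.10 ± 0.072).

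The promoters of 3 fallers are shown because they hold motif matches. Myl9 and Fhl2 match the CArG box, to which serum response factor binds. Col3a1 holds the letters TATAAA of the TATA box core, a motif not particular to matrix genes. No position was required, so a match describes letters only. Fhl2, a LIM protein cofactor of serum response factor, is in none of the lists and was singled out for the CArG motif. It was 63.1-fold lower, with 17.51, 17.49 and 17.40 in MEF and 11.51, 11.27 and 11.68 in IP14D-101. The promoters lie at chr2:156775214-156775513 (Myl9, plus strand), chr1:43196712-43197011 (Fhl2, minus strand) and chr1:45311288-45311587 (Col3a1, plus strand) of GRCm38.p6, per RefSeq. Capitals mark the CArG match in Myl9 and Fhl2 and the letters TATAAA in Col3a1. The Col3a1 promoter also holds the octamer core, at bases -148 to -142, though Col3a1 was lower in IP14D-101.
Myl9: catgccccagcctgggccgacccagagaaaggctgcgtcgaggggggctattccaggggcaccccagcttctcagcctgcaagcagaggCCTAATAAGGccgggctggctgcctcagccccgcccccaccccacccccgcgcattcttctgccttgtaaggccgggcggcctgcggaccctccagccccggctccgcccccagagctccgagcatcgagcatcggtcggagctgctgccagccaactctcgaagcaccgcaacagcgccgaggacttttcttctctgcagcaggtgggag
Fhl2: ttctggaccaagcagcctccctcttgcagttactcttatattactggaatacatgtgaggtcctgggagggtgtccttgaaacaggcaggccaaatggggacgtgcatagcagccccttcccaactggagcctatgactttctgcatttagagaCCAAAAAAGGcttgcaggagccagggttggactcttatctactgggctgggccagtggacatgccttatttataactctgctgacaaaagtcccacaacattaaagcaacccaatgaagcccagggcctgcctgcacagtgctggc
Col3a1: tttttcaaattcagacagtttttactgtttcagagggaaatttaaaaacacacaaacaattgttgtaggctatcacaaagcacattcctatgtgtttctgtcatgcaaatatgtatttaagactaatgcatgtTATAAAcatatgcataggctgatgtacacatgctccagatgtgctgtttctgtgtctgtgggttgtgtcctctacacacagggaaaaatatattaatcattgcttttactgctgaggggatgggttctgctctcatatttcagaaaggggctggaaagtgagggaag
The CArG match covers bases -161 to -152 in Myl9 and -96 to -87 in Fhl2. Searched on both strands, it was found in 1.57% of all promoters, 1.36% of those of measured genes, in 10 of 379 promoters of genes at least 8-fold lower (2.64%) and in 3 of 80 of those at least 32-fold lower. The table held these promoters for 379 of 519 and 80 of 116 genes. TATAAA, on either strand, was found in 14.2% of all promoters, 9.87% of those of measured genes, in 53 of 379 of those of genes at least 8-fold lower and in 17 of 80 of genes at least 32-fold lower (21.2%). It covers bases -117 to -112 in Col3a1, and Fhl2 holds it on the opposite strand at -28 to -23. CpG-rich promoters, with an observed over expected CpG ratio above 0.6, made up 57.0% of the promoters of measured genes. They made up 59.1% of those at least 8-fold higher and 54.1% of those at least 8-fold lower, and in the smaller sets 37.5% of those at least 32-fold higher and 41.2% of those at least 32-fold lower.

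Several related systems moved with the contractile genes. Of 9 caveola genes 7 were lower and none higher (median -4.44). Cav1, the main coat protein of caveolae, had 17.86, 17.91 and 18.01 in MEF and 9.85, 10.76 and 9.37 in IP14D-101 and was at least 117-fold lower, and Cav2, Cavin2 and Cavin3 were at least 24.8-fold, at least 35.6-fold and at least 24.8-fold lower. Ehd2 and Cavin1 fell by 4.44 ± 0.29 and 2.92 ± 0.14 log2 and Cavin4 was at least 1.32-fold lower, a call that was lost without IP14D-101 replicate 3 (adjusted p = 0.0567). Cav3, of muscle, was below background in both groups, and Pacsin3 differed by -0.24 ± 0.2 and was not called. Of 20 YAP and TEAD genes and targets 17 were lower and 3 higher (median -2.20). The targets Ankrd1, Ccn2 and Crim1 fell, Ankrd1 at least 49.9-fold, Ccn2 by 4.24 ± 0.072 log2 and Crim1 by 4.60 ± 0.31. The 3 that rose were the YAP partners Tead2 (0.96 ± 0.099) and Tead4 (0.77 ± 0.24) and the LIM protein gene Ajuba (1.21 ± 0.093). The call of Tead4 was lost without IP14D-101 replicate 1 (0.65 log2, adjusted p = 0.0621) and without scaling (0.20, adjusted p = 0.553).

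Cadherins were found among the largest changes in both directions, but few of the family were called. Of 18 cadherins 4 were higher and 4 lower, beside 29.9% and 24.2% of all genes, or 2 and 5 without scaling. Cdh1, or E-cadherin, which joins epithelial cells, had 17.98, 17.78 and 17.83 in IP14D-101 and 9.44, 8.44 and 9.51 in MEF and was at least 111-fold higher, and the desmosomal cadherin Dsg2 was at least 22.4-fold higher. Cdh11, the cadherin of mesenchyme, had 8.94, 10.08 and 8.60 in IP14D-101 and 19.28, 19.36 and 19.34 in MEF and was at least 307-fold lower. N-cadherin (Cdh2) fell by 4.29 ± 0.17 log2 and Cdh10 was at least 16.6-fold lower. E-cadherin and Cdh11 thus each lay below background in the group where the other was bright.

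Tight and gap junction genes were mostly gained: 16 of 21 were higher and 3 lower (median 2.43). The claudins Cldn7, Cldn6, Cldn4 and Cldn3, which seal epithelial sheets, were at least 22.2-fold, at least 21.3-fold, at least 18.6-fold and at least 6.26-fold higher. The connexin gene Gjb2 went the other way, with 16.41, 16.30 and 16.26 in MEF and every IP14D-101 array below background, at least 38.3-fold lower.

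Basement membrane genes divided by chain. Of 20, 6 were higher and 11 lower. Lama1, the laminin chain of the early embryo, rose by 3.02 ± 0.16 log2, from 12.81 ± 0.46 to 15.83 ± 0.056 (SD), and Nid2 and Lama5 rose by 1.56 ± 0.087 and 1.08 ± 0.086. Lama4 and Lama2, laminin chains of vessels and muscle, were at least 15.5-fold and at least 7.34-fold lower, the laminin-binding netrin gene Ntn4 at least 11.5-fold lower, and the type IV collagens Col4a5 and Col4a2 fell by 4.17 ± 0.27 and 3.26 ± 0.15. Among 20 integrin subunits 5 were higher and 10 lower (median -1.90). Itga6 and Itga3, which form laminin receptors, rose by 2.80 ± 0.092 and 2.69 ± 0.12, and Itgb7 was at least 2.95-fold higher. Itgav, Itgb1 and Itgb5, subunits of fibronectin and vitronectin receptors, fell by 3.19 ± 0.098, 2.82 ± 0.11 and 2.26 ± 0.11, and Itga8 was at least 10.4-fold lower.

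**Figure D3:**
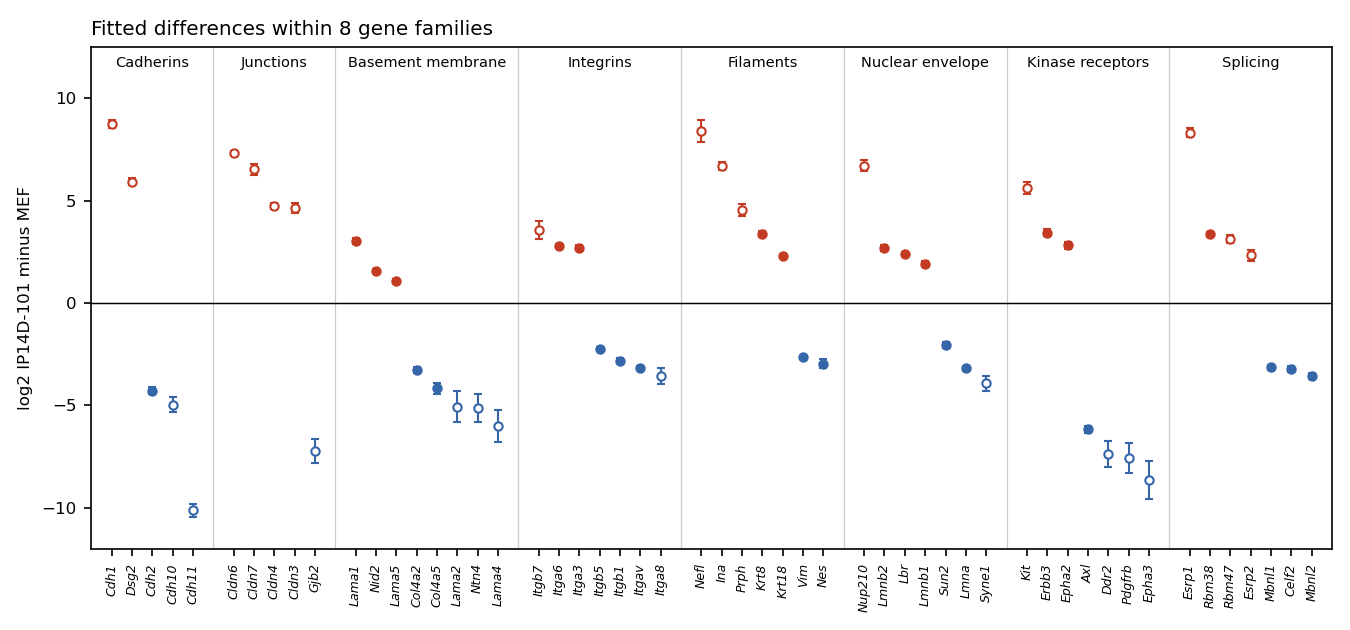
Difference in level between IP14D-101 and MEF (log2, fitted, with standard errors) for members of 8 families named in the text, in red where higher and blue where lower in IP14D-101. Open circles mark genes whose dimmer group lay below background, so that their fitted difference is no measured fold. Each family holds members far above and far below 0, such as Cdh1 at 8.73 ± 0.19 and Cdh11 at -10.12 ± 0.32.

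Genes of the filaments and the nuclear envelope inside the cell were called in both directions. Of 17 intermediate filament genes 8 were higher and 4 lower, beside 29.9% and 24.2% of all genes. The keratins of simple epithelia, Krt8 and Krt18, rose by 3.37 ± 0.14 and 2.31 ± 0.099 log2. The neuronal filaments Nefl and Ina had IP14D-101 levels of 15.42, 15.63 and 15.86 and 16.60, 16.37 and 16.55 and were at least 23.9-fold and at least 43.6-fold higher, and Prph (peripherin) at least 6.29-fold higher. Nes (nestin) and Vim fell by 2.97 ± 0.22 and 2.66 ± 0.088. Of 15 nuclear envelope genes 8 were higher and 4 lower, or 6 and 6 without scaling. Lmna, which encodes the A-type lamins of differentiated cells, had 17.68, 17.69 and 17.54 in MEF and 14.32, 14.33 and 14.70 in IP14D-101 and fell by 3.19 ± 0.12. Lmnb1 and Lmnb2, the B-type lamins, rose by 1.92 ± 0.11 and 2.68 ± 0.16, Lbr, the lamin B receptor, by 2.40 ± 0.078, and the nucleoporin gene Nup210 was at least 12.3-fold higher. Syne1, which ties the nucleus to actin, was at least 10.3-fold lower, and Sun2, its partner, fell by 2.05 ± 0.13.

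Surface antigens used to sort such cells also moved in both directions, with 13 of 24 higher and 8 lower. Thy1, used to mark fibroblasts, had 18.54, 18.45 and 18.47 in MEF and 11.57, 11.18 and 11.23 in IP14D-101, all 6 arrays above background, and fell by 7.16 ± 0.18 log2. Cd44, the hyaluronan receptor, and Cd248 were at least 151-fold and at least 65.5-fold lower. Epcam, an adhesion protein of epithelia and stem cells, had 17.18, 17.37 and 17.36 in IP14D-101 and 6.62, 7.60 and 8.04 in MEF and was at least 75.8-fold higher. Alpl, the alkaline phosphatase stained for in stem cell colonies, was at least 31.5-fold higher, Kit, the receptor for stem cell factor, at least 15.8-fold higher, and Icam1 at least 18.5-fold higher. Fut9, which makes the SSEA1 sugar, was at least 4.24-fold higher, with 13.40, 13.59 and 12.45 against 6.67, 9.23 and 8.62 and its lowest IP14D-101 array still above every MEF array. Cd34, Fut4 and Nt5e were not called.

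Growth factor signalling changed on both the ligand and the receptor side. Of 38 receptor tyrosine kinase genes 20 were lower and 10 higher, and of 35 growth factor genes 19 were lower and 9 higher. Among ligands, Fgf4, the factor by which mouse pluripotent cells drive their own ERK signal, had 16.90, 16.98 and 17.10 in IP14D-101 and 7.90, 7.84 and 7.91 in MEF and was at least 61.1-fold higher. Fgf17 was at least 12.3-fold higher, and midkine (Mdk), the relative of pleiotrophin, rose by 2.76 ± 0.094 while Ptn fell. Igf2, a fetal growth factor, had 18.11, 17.99 and 17.95 in MEF and 13.52, 13.26 and 13.36 in IP14D-101 and fell by 4.64 ± 0.13. Pdgfd and Bdnf were at least 13.6-fold and at least 13.0-fold lower and Vegfa fell by 3.04 ± 0.16. Among receptors, Pdgfrb was at least 138-fold lower and the collagen receptor Ddr2 at least 44.3-fold lower. Epha3 was at least 28.2-fold lower and Axl fell by 6.18 ± 0.19. Erbb3 and Epha2 rose by 3.44 ± 0.15 and 2.81 ± 0.16. The platelet-derived growth factor receptors thus differed from each other, since Pdgfra was not called.

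Of 10 genes for IGF-binding proteins and their proteases 7 were lower and 1 higher (median -3.04). Igfbp7 and Igfbp4 fell by 7.50 ± 0.25 and 3.05 ± 0.13, and Igfbp6 and Pappa, a protease that frees IGF, were at least 18.5-fold and at least 100-fold lower. Igfbp5, Igfbp3 and Htra1 fell by 3.03 ± 0.53, 0.94 ± 0.17 and 3.87 ± 0.093. Igfbp2 rose by 2.81 ± 0.12, with 18.37, 18.44 and 18.69 against 16.07, 15.44 and 15.57, and the groups did not overlap. Igfbp1 was below background in both groups, and Pappa2 differed by -1.73 ± 0.98 and was not called.

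TGF-beta family genes moved in both directions. Of 28 TGF-beta and activin genes 11 were higher and 16 lower. Tgfb3 and Tgfb2, the TGF-beta ligands, were at least 87.7-fold and at least 23.6-fold lower, their receptor gene Tgfbr2 at least 53.1-fold lower, the latent binding protein gene Ltbp2 at least 42.1-fold lower, and Inhba, the activin A subunit, at least 40.8-fold lower. Nodal, a ligand that shares receptors with activin, had 16.39, 16.20 and 16.56 in IP14D-101 and 11.21, 10.66 and 11.17 in MEF and was at least 37.6-fold higher. Its co-receptor Tdgf1, its receptor Acvr2b, its relative Gdf3 and its antagonist Lefty1 were higher by at least 327-fold, at least 23.4-fold, at least 53.2-fold and 67.5-fold. Smad2, which carries the signals of TGF-beta, activin and Nodal, differed by -0.12 ± 0.097 and was not called. Of 28 BMP genes 6 were higher and 13 lower, under median scaling 8 and 9. Id1, a target of BMP that blocks differentiation, rose by 3.01 ± 0.16, and Id2 by 1.39 ± 0.12. Acvr1 and Bmpr2, BMP receptors, fell by 3.05 ± 0.14 and 2.56 ± 0.22, the antagonist Grem1 by 4.73 ± 0.63, and the antagonist Nbl1 was at least 11.4-fold lower.

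Of 28 Wnt ligands and receptors 6 were higher and 11 lower, beside 29.9% and 24.2% of all genes. Their median was 0.06, against 0.05 over all genes. Wnt5a, a ligand of mesenchyme, was at least 15.8-fold lower and Fzd1 and Fzd2 fell by 4.57 ± 0.18 and 2.57 ± 0.17 log2. Fzd5, Lrp5 and Wnt7b rose by 2.17 ± 0.12, 1.54 ± 0.22 and 1.52 ± 0.18. Of 13 secreted antagonists 4 were higher and 4 lower, shares near the 29.9% and 24.2% of all genes. Sfrp2 had 13.88, 14.06 and 14.03 in IP14D-101 and 5.44, 5.99 and 6.53 in MEF and was at least 7.62-fold higher, and Dkk2 had 5.33, 6.32 and 6.09 and 15.06, 14.94 and 15.01 and was at least 15.4-fold lower. Both were well above background on all arrays of 1 group and well below it on all arrays of the other. Dkk1 and Notum were at least 2.74-fold and at least 5.86-fold higher and Dkk3 fell by 4.15 ± 0.35.

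Of 28 Notch and hedgehog genes 10 were higher and 12 lower, or 11 and 10 under median scaling. Ptch1 and Gli1, targets that report hedgehog activity, were higher: Ptch1 by 2.91 ± 0.076 log2, with 16.51, 16.60 and 16.44 against 13.54, 13.60 and 13.68, and Gli1 at least 7.57-fold. The Notch ligand Dll3, the receptor Notch4 and the glycosyltransferase gene Mfng were at least 5.92-fold, at least 6.49-fold and at least 5.54-fold higher, while Jag1 fell by 2.40 ± 0.17 and Gas1, a hedgehog co-receptor, by 2.69 ± 0.27. Of 32 semaphorin, slit and netrin genes and their receptors 19 were lower and 6 higher (median -1.32). Nrp1, a receptor for semaphorins and VEGF, was at least 98.5-fold lower, Slit2 and Slit3 fell by 5.47 ± 0.24 and 3.56 ± 0.49, and Sema3a and Sema3c were at least 15.5-fold and at least 12.1-fold lower. Netrin-1 (Ntn1) was at least 6.67-fold higher and Sema4d rose by 3.29 ± 0.097.

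Chemokine, cytokine and complement genes were mostly lower. Of 33 chemokine, cytokine and receptor genes 23 were lower and 1 higher (median -2.51). Cxcl12, the chemokine of stromal cells, had 18.73, 18.70 and 18.74 in MEF and 10.89, 11.76 and 11.56 in IP14D-101 and was 160-fold lower. Osmr, the oncostatin receptor, and Tnfrsf11b, osteoprotegerin, were at least 55.1-fold and at least 46.4-fold lower, and Csf1 fell by 5.53 ± 0.25 log2. Lifr, the LIF receptor, was the member that rose, by 1.85 ± 0.15, with 15.89, 15.77 and 15.22 against 13.58, 13.68 and 14.08. Of 31 innate sensors and adaptors 14 were lower and 3 higher, and none was higher without scaling. Sting1, the adaptor of cytosolic DNA sensing, fell by 3.09 ± 0.56 and the interferon receptor gene Ifnar2 by 2.49 ± 0.21. Of 16 complement genes 10 were lower and 1 higher. C1qa and C1qb, made by macrophages, were at least 6.76-fold and at least 6.50-fold lower. Beside these counts, of 11 macrophage and blood markers 8 were lower and 1 higher in IP14D-101. Their summed signal was 36020 to 45054 there and 91619 to 94221 in MEF, C1qa is in both lists, and the part of such cells in the immune counts was not tested.

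Genes for making DNA, RNA and ribosomes rose together. All 28 nucleolar and ribosome assembly genes were higher (median 1.67 log2), or 27 without scaling. Nhp2 and Dkc1, of the complex that guides pseudouridine into RNA and also joins telomerase, rose by 2.49 ± 0.08 and 2.42 ± 0.095. Tcof1 and Nolc1, nucleolar phosphoproteins, rose by 2.40 ± 0.089 and 2.13 ± 0.08, and Polr1b, an RNA polymerase I subunit, by 2.36 ± 0.11. Of 34 DNA repair genes 32 were higher and 1 lower (median 2.05). The mismatch repair gene Msh6 had 18.88, 18.93 and 18.95 in IP14D-101 and 14.65, 14.65 and 14.70 in MEF and rose by 4.26 ± 0.067. Ung, uracil DNA glycosylase, rose by 3.37 ± 0.11, Lig1, the ligase of replication, by 3.23 ± 0.077, Brca1 by 3.17 ± 0.088 and Uhrf1 by 3.10 ± 0.095. Lig4, the ligase of end joining, fell by 0.88 ± 0.2, and Fancb was not called (0.45 ± 0.19). Fancb was called higher with arrays scaled to their median (0.80, adjusted p = 1.0e-03), with quantile normalization (0.73), with only probe sets above background tested (0.45), and without IP14D-101 replicate 3 (0.60) or MEF replicate 3 (0.58).

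Of 32 nucleotide synthesis genes 26 were higher and 3 lower (median 1.35). Apart from Upp1, the largest rises were in Gart and Prps1 of purine synthesis, by 3.25 ± 0.13 and 2.80 ± 0.098 log2, and in Dhodh and Cad of pyrimidine synthesis, by 2.53 ± 0.11 and 2.38 ± 0.083. Ak1 and Cmpk1 fell by 2.14 ± 0.11 and 0.99 ± 0.097. Of 21 serine, glycine, threonine and folate genes 11 were higher and 5 lower, or 8 and 8 without scaling. Gldc, the glycine decarboxylase, was at least 29.9-fold higher, and the cytosolic folate enzymes Shmt1 and Mthfd1 rose by 4.22 ± 0.13 and 3.53 ± 0.088. A pair of mitochondrial folate enzymes went the other way: Aldh1l2 had 17.14, 17.17 and 17.14 in MEF and 10.95, 11.02 and 11.19 in IP14D-101 and was at least 66.1-fold lower, and Mthfd2l fell by 2.35 ± 0.25. Shmt2 was not called (-0.17 ± 0.12), but was called lower without scaling (-0.74) and without IP14D-101 replicate 3 (-0.29).

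Transporters and antioxidant enzymes moved in both directions. Of 26 amino acid and glucose transporter genes 10 were higher and 9 lower, or 9 and 14 without scaling. Besides Slc2a3, the glucose transporter gene Slc2a1 rose by 2.01 ± 0.13, the lactate transporter gene Slc16a1 by 2.66 ± 0.084 and Slc7a7 by 2.93 ± 0.096, while Slc2a10 was at least 7.82-fold lower. Of 32 glutathione and antioxidant genes 15 were higher and 12 lower, or 11 and 17 without scaling. Gclm and Gclc, which together make the first enzyme of glutathione synthesis, rose by 2.68 ± 0.093 and 2.00 ± 0.096, and Gsr, which recycles glutathione, by 2.06 ± 0.12. Gpx8, of the endoplasmic reticulum, and Gsto1 fell by 4.73 ± 0.22 and 2.54 ± 0.1. Of 28 lysosome genes 21 were lower and 3 higher (median -0.91), with the cathepsins Ctsh and Ctsc lower by 3.63 ± 0.41 and 3.32 ± 0.12 log2 and Lamp2, of the lysosomal membrane, by 3.06 ± 0.16.

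Cell cycle genes moved in both directions. Of 36 cyclin, CDK inhibitor and E2F genes 21 were higher and 13 lower (median 0.76). Ccne1, cyclin E1, which starts DNA replication, had 17.57, 17.47 and 17.74 in IP14D-101 and 14.18, 14.46 and 14.05 in MEF and rose by 3.36 ± 0.11. Ccnf, Ccnb2 and E2f8 rose by 3.59 ± 0.1, 2.28 ± 0.1 and 2.56 ± 0.093. Ccnd2, cyclin D2, had 18.90, 18.91 and 18.81 in MEF and 14.29, 13.87 and 13.88 in IP14D-101 and fell by 4.86 ± 0.12. The inhibitors Cdkn2b (p15) and Cdkn1a (p21) fell by 4.77 ± 0.23 and 2.98 ± 0.11, and Cdkn2c (p18) was at least 6.34-fold lower. The inhibitor gene Cdkn1c (p57) rose, by 2.94 ± 0.19.

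Of 18 telomere genes 12 were higher and none lower (median 1.33), although without scaling 11 were higher and 3 lower. Rif1, which binds telomeres and sets replication timing, rose by 3.02 ± 0.15, Wrap53, which brings telomerase to Cajal bodies, by 2.15 ± 0.16, and Tinf2, a shelterin subunit, by 1.89 ± 0.098. Of 18 BCL2 family genes 9 were higher and 2 lower, or 6 and 5 without scaling. Both sides of the family moved: the killers Bid and Bcl2l11 (Bim) rose by 1.84 ± 0.081 and 1.69 ± 0.13 and the protector Mcl1 by 1.45 ± 0.08. Bcl2 was at least 2.92-fold lower (adjusted p = 0.0238), with IP14D-101 arrays as far apart as 11.34, 11.82 and 9.05. That call was lost without IP14D-101 replicate 3 (-1.37 log2, adjusted p = 0.151), without MEF replicate 3 (-2.09, adjusted p = 0.0695) and with no trend in the prior variance (-2.22, adjusted p = 0.0714). Of 22 clock genes 4 were higher and 8 lower, or 5 and 5 under median scaling and 1 and 13 without scaling. Timeless, which in mammals works at replication forks, rose by 3.16 ± 0.076, and Nfil3 and Clock fell by 3.85 ± 0.17 and 1.67 ± 0.26.

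Of 28 splicing regulators 16 were higher and 8 lower, but without scaling 8 and 11. The epithelial splicing factor Esrp1 had 14.94, 15.14 and 14.94 in IP14D-101 and 6.23, 6.34 and 7.48 in MEF and was at least 15.4-fold higher, and its relative Esrp2 was at least 4.64-fold higher. Rbm38 rose by 3.35 ± 0.13 log2 and Rbm47 was at least 6.07-fold higher. The muscleblind genes Mbnl2 and Mbnl1, known to hold back stem cell splicing patterns, fell by 3.56 ± 0.13 and 3.15 ± 0.12, and Celf2 fell by 3.24 ± 0.15. Of 19 retinoid genes 5 were higher and 7 lower, beside 29.9% and 24.2% of all genes. The binding proteins Crabp1 and Crabp2 fell by 2.95 ± 0.12 and 2.71 ± 0.18, and Stra8, a retinoid-induced gene of meiosis, had 15.62, 15.57 and 15.46 in IP14D-101 and 10.64, 10.38 and 11.61 in MEF and was at least 19.7-fold higher.

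Of 11 reference genes often taken as constant, 8 were higher and 2 lower, but 3 and 5 without scaling. Tfrc, the transferrin receptor, rose by 2.69 ± 0.085, and Polr2a, of RNA polymerase II, by 1.58 ± 0.083, while Gusb fell by 0.66 ± 0.096. Actb differed least at this scaling, but by 0.40 log2 with arrays scaled to their median (adjusted p = 0.0287) and by -0.52 without scaling (adjusted p = 4.9e-05).

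**Figure D4:**
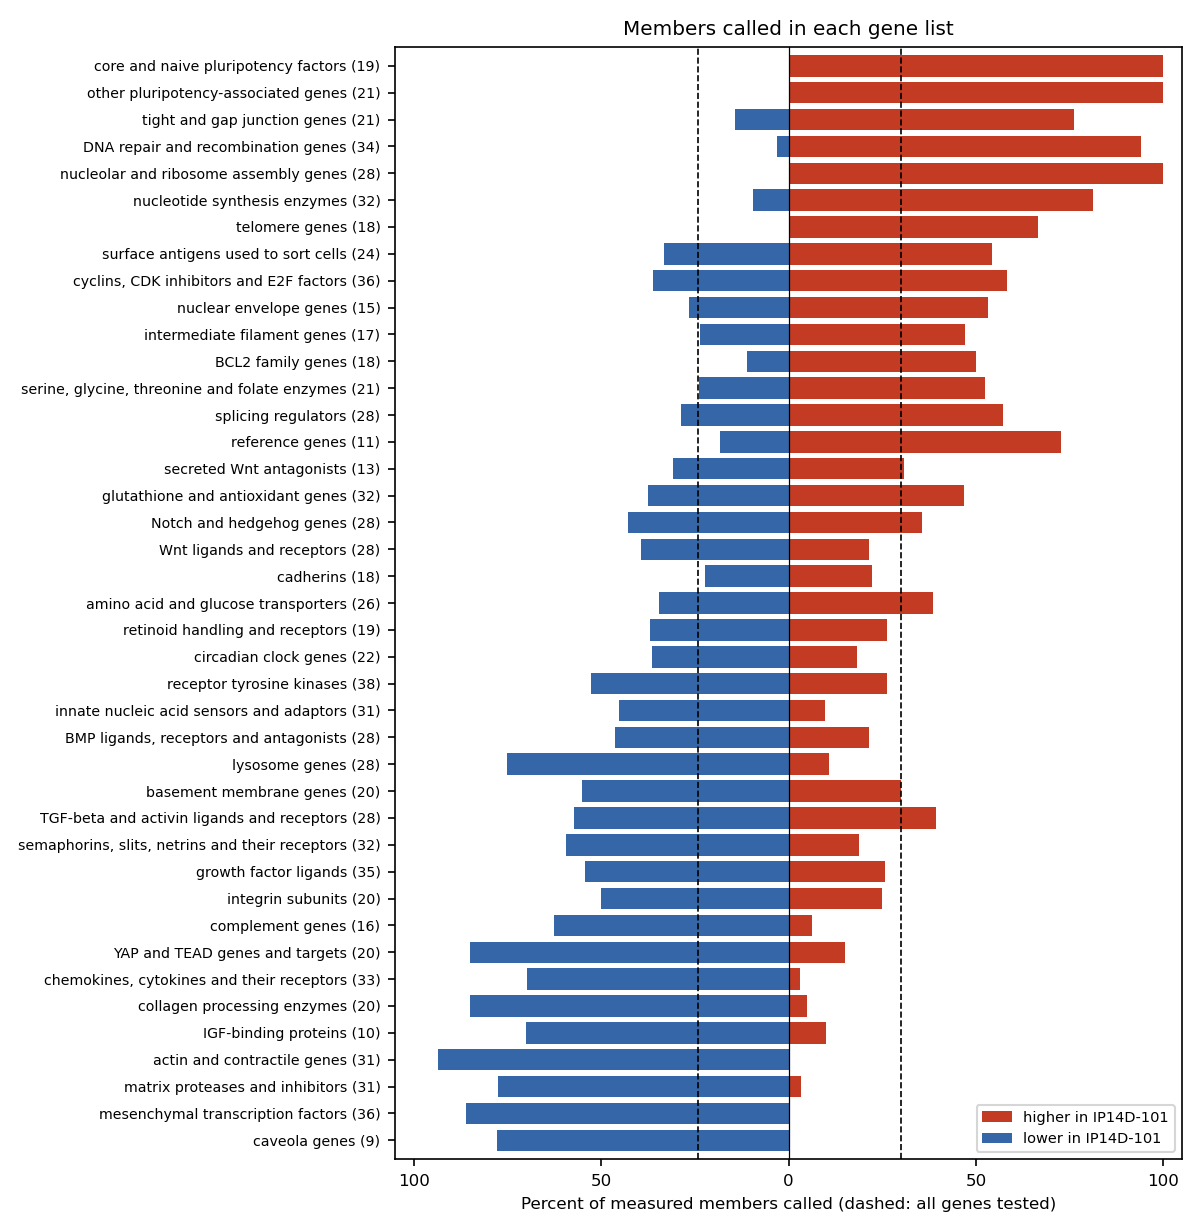
Percent of the measured members (number in brackets) of 41 gene lists called higher (red, to the right) or lower (blue, to the left) in IP14D-101, sorted by the list's median difference. Dashed lines give the shares over all genes tested, 29.9% higher and 24.2% lower. Both pluripotency lists and the nucleolar list reach 100% higher, and the contractile, mesenchymal and caveola lists hold no higher member.

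Markers of other cell types were examined in the same way, beside the 29.9% of all genes that were higher and 24.2% that were lower. Of 10 neural markers 5 were higher and 2 lower in IP14D-101. Olig2, a factor of oligodendrocyte precursors, had 15.13, 14.80 and 15.16 against 5.05, 9.85 and 5.14, Sox1 was at least 4.49-fold higher, and Stmn2 rose by 3.91 ± 0.074. Neurog2 and Dcx were below background in both groups. Of 7 germ line markers 6 were higher, among them Ddx4, or Vasa, with 14.47, 14.69 and 14.09 against 4.83, 6.28 and 6.44, with Mael at least 7.40-fold higher and Dazl at least 3.35-fold higher. Of 10 endothelial markers 6 were higher and 2 lower, with Pecam1, which pluripotent cells also express, at least 4.77-fold higher and Cdh5 below background in both groups. The neural and endothelial genes named here were higher or below background in both groups, and do not stand for the whole lists. Of 9 trophoblast markers 4 were higher, of 8 cartilage and bone markers 2 were higher and 1 lower, and of 5 adipocyte markers 3 were lower, or 1 under median scaling or quantile normalization. Of 10 muscle markers 3 were higher and 2 lower, near the shares of all genes, and the muscle factors Myod1, Myog and Myf5 were below background in both groups. Of 6 mesoderm markers 2 were higher and 1 lower. None of 7 keratinocyte markers was called, though 1 was higher under median scaling or quantile normalization. These lists were written with earlier results in view, and single markers do not show that such cells were present.

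Xist and Meg3 are noncoding RNAs that report on X inactivation and on the imprinted Dlk1-Dio3 domain. Xist had 16.98, 17.11 and 16.68 in MEF and 13.60, 13.45 and 12.62 in IP14D-101 and fell by 3.70 ± 0.19 log2. Meg3 had 18.30, 18.39 and 18.24 and 16.43, 16.56 and 15.85 and fell by 2.03 ± 0.12, with all 11 of its probe sets called lower. Both stayed above background on every IP14D-101 array. The sex of the cells was not examined, and whether X inactivation or imprinting differed between the groups was not tested.

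Some changed genes lie next to each other. Of all 18193 genes, 938 were called and at least 4-fold higher and 1127 at least 4-fold lower. Whether runs are longer than these shares alone would give was not tested. Taking runs of neighbouring measured genes that all changed at least 4-fold in 1 direction, the longest was on chromosome 19 with 5 genes lower: Acta2, Fas, Ch25h, Lipa and Ifit2, at 44.0-fold, at least 4.98-fold, at least 7.37-fold, 6.52-fold and at least 4.10-fold. They serve contraction, cell death, sterol metabolism, lysosomal lipid breakdown and the interferon response. On chromosome 6, 4 neighbours were higher: Gdf3, Dppa3, Nanog and Slc2a3, which changed at least 53.2-fold, at least 16.2-fold, at least 166-fold and 98.0-fold. On chromosome 15, Hoxc10, Hoxc9, Hoxc8 and Hoxc6, which give position along the body axis, were at least 6.01-fold, at least 7.92-fold, at least 32.2-fold and 9.05-fold lower. On chromosome X, Pcdh19, Tnmd, Tspan6 and Srpx2 were lower, Pcdh19 56.4-fold and Tnmd at least 20.7-fold. B4galnt4, Pkp3, Sigirr and Ano9 on chromosome 7 were higher at 9.28-fold, at least 4.72-fold, 7.01-fold and at least 4.17-fold, and Gulp1, Col3a1 and Col5a2 on chromosome 1 were lower. Gulp1, an adaptor for engulfing dead cells, had 16.59, 16.37 and 16.35 in MEF and 12.60, 12.13 and 12.57 in IP14D-101, with no overlap. At a 2-fold limit, which 2837 genes passed upward and 2516 downward, the longest run was 8 genes of the Hoxa cluster on chromosome 6, all lower.

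To see where IP14D-101 departs from other pluripotent cells, it was set against the mean of CL11, IP14D-1 and IP20D-3 in the same fit, a contrast in which MEF take no part. Of 18193 genes 2167 were higher in IP14D-101 (11.9%) and 1929 lower (10.6%), and over probe sets 3460 (7.68%) were higher and 5238 (11.6%) lower. That split turned with scaling: 39.8% of called probe sets were higher, but 72.4% with arrays scaled to their median, 48.6% after quantile normalization and 11.3% without scaling. Without IP14D-101 replicate 3, 3432 probe sets were lower. That array correlated with arrays of the other lines at 0.889 to 0.911. For replicate 1 these correlations were 0.917 to 0.927 and for replicate 2 they were 0.91 to 0.92. The named differences below kept their direction under each of these scalings. Line and background cannot be told apart in them, since only IP14D-101 is C57x129S2.

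Markers of primitive endoderm, the layer that forms beside the pluripotent epiblast in the early embryo, stood out in this contrast. Of 10, 6 were higher in IP14D-101 than in the mean of the other 3 lines and none lower. Gata6, a founding factor of that layer, had 14.46, 14.38 and 14.70 in IP14D-101, with a mean of 14.91 in CL11 but 10.93 in IP14D-1 and 10.96 in IP20D-3. Gata4 had a mean of 13.58 in IP14D-101, 13.90 in CL11, 11.45 in IP14D-1 and 10.75 in IP20D-3. Dab2, an endocytic adaptor that sorts this epithelium, had 15.72, 15.96, 12.89 and 12.33 in the same order. The ES line and IP14D-101 were thus both high, and the other iPS lines low. Pdgfra showed the same division, with 13.96, 13.56, 9.98 and 8.27, where the last pair is below background, and so did Lama1, with 15.83, 16.35, 13.37 and 14.05. Against the mean of the 3 lines the differences were 2.25 ± 0.18, 1.54 ± 0.34, 1.99 ± 0.081, 3.35 ± 0.38 and 1.23 ± 0.13 log2 for Gata6, Gata4, Dab2, Pdgfra and Lama1 (adjusted p = 2.4e-07, 0.00358, 2.9e-11, 8.1e-06 and 4.5e-06). The means of Gata6 and Pdgfra in IP14D-1 and IP20D-3, and of Gata4 in IP20D-3, lay below background, so the differences of these genes are no measured folds. The difference in Sox7, 1.06 ± 0.3, passed here (adjusted p = 0.0163) but not without IP14D-101 replicate 1 (adjusted p = 0.0565), without replicate 3 (0.0706) or without scaling (0.0730). Afp and Ttr, of later yolk sac endoderm, were below background in IP14D-101.

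Pdgfra, Dab2 and Gata6 were also bright in MEF, so that IP14D-101 and MEF differed by only -0.48 ± 0.47, -0.30 ± 0.099 and 0.55 ± 0.23 log2 (adjusted p = 0.452, 0.0181 and 0.0554). By the labels, iPS cells grew on feeder MEF. On the IP14D-101 arrays 13 of 17 fibroblast markers lay below background, and their summed signal is given above. The part of feeder cells in these levels was not tested.

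Among the other genes that were higher in IP14D-101 than in the mean of the 3 lines, Stra8 had 15.55 against 13.36, 12.98 and 12.65 (adjusted p = 1.3e-07). Zfp42 had 18.06 against 16.28, 16.32 and 15.98, and Lefty1 18.00 against 14.99, 17.32 and 16.75. All higher genes in this paragraph were taken only from those whose IP14D-101 arrays did not overlap the other lines. IP14D-101 is therefore the highest of the 4 lines in each by selection. Sdc4, a heparan sulfate proteoglycan, was higher by 1.81 ± 0.097 log2, Trh, the precursor of thyrotropin-releasing hormone, by 1.45 ± 0.17, and Hal, histidine ammonia lyase, by 2.05 ± 0.43. The mean of Hal was 12.64 in CL11, against 13.28 in IP14D-101. Igsf21, Hpdl and Cracr2b were higher by 1.75 ± 0.3, 1.54 ± 0.37 and 1.50 ± 0.42, where Cracr2b did not pass without IP14D-101 replicate 3 (adjusted p = 0.0749). In CL11 these 3 had means of 12.26, 13.36 and 11.78, against 13.03, 13.86 and 12.77 in IP14D-101, so most of their difference lies in IP14D-1 and IP20D-3. In those lines Hal and Igsf21 lay below background, as did Cracr2b in IP20D-3.

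Among the genes that were lower, Cd99, a membrane glycoprotein, had 10.73, 11.56 and 10.70 in IP14D-101 against means of 14.21, 14.83, 15.15 and, in MEF, 15.97. Mid1, a ubiquitin ligase on microtubules, had 11.14, 11.94 and 11.03 against 12.26, 15.85, 15.88 and 13.88. Ankrd31, a meiotic gene, had 9.28, 9.26 and 8.74 against 12.68, 13.77 and 13.38, and was below background in MEF too. That every IP14D-101 array lay below all arrays of the other lines was a condition of choice for all lower genes named here. Apoc2, an apolipoprotein gene, was at least 6.01-fold lower than the mean of the other lines, and Fst, which binds activin, at least 4.22-fold lower. The imprinted adaptor gene Grb10 was lower by 2.16 ± 0.067 log2, the calcium-binding protein gene S100a6 by 2.24 ± 0.09 and the stress factor gene Atf3 by 2.08 ± 0.17. Taf15 and Rgcc were lower by 1.97 ± 0.19 and 1.96 ± 0.18. CL11 was within 1 log2 of IP14D-101 in Atf3 and Taf15 (for Taf15 12.02 against 11.28), and IP14D-1 and IP20D-3 were higher, as they were for Mid1.

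**Figure D5:**
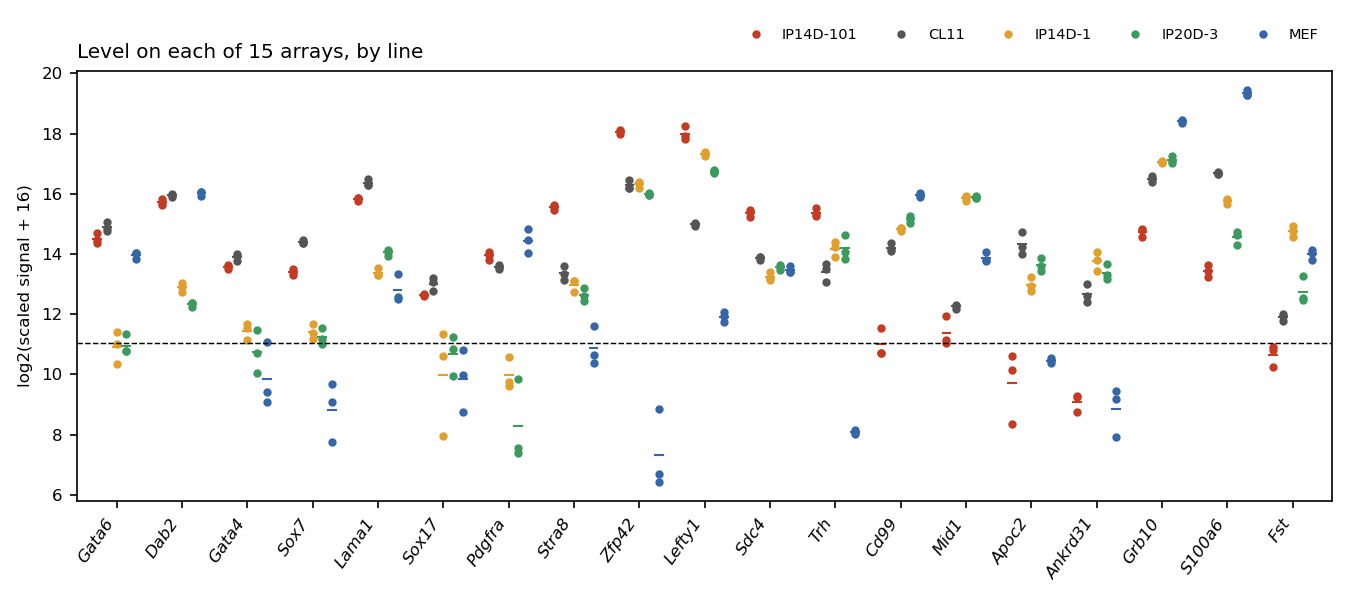
Level of 19 genes on each of the 15 arrays, as log2(scaled signal + 16), for IP14D-101, CL11, IP14D-1, IP20D-3 and MEF, with short lines for group means and a dashed line at background. For Gata6, Dab2, Gata4, Sox7 and Pdgfra the arrays of IP14D-101 and CL11 lie above those of IP14D-1 and IP20D-3. For Cd99, Mid1 and Ankrd31 the IP14D-101 arrays lie below all other lines, which their choice required.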

How the data were processed

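The deposited table holds linear intensity values that the authors computed with MAS5 (Affymetrix Expression Console is the tool named in the submitters' processing notes), for 45101 probe sets of an Affymetrix mouse array on 15 arrays. The version of these tools and any detection calls were not used here. Total RNA taken with Trizol had been copied into biotin-labelled cRNA before hybridisation, per the labels. MAS5 subtracts mismatch signal, so low values are noisy, and the number of arrays limits the precision.

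The 64 control probe sets were left out. Each array was multiplied to the mean of all arrays' 2% trimmed means, 14564.7, 16 was added and log2 taken. limma 3.58.1 in R 4.3.3 was fitted over the 15 arrays with 1 mean per group (lmFit, and eBayes with a trend), and p was adjusted by Benjamini-Hochberg over all 45037 probe sets. Gene names came from the platform annotation: 34945 probe sets name 1 gene, 932 several and 9160 none. Of several probe sets for a gene, the brightest by mean log2 stands for it. Among probe sets without a gene 7.71% were higher and 18.9% lower than in MEF. The fit was also run on simulated data with independent noise and no shift between arrays. That run does not bear on how the calls depend on scaling. Sharing a replicate number did not pair samples (correlations of deviations -0.074 to 0.001).

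The members and gene lists were chosen with earlier results of these data known, so list counts are no independent support. Named are the 15 largest rises and falls, the 8 brightest risers and fallers at 4-fold or more, and, in each list, up to 5 members each way with up to 4 exceptions. The rises, falls and brightest genes came only from called genes whose arrays did not overlap, with predicted genes passed over. Lists with 12 or fewer measured members were open in full. Added are the 10 largest differences each way from the other lines, under the same conditions against those lines. Added too are the 6 longest runs of neighbours, and Pou5f1, Sox2, Klf4, Myc, Nanog, Col1a1, Cdh1, Thy1, Lmna, Lmnb1, Meg3 and Xist. Neighbours and promoters came from RefSeq tables of GRCm38.p6. Alternatives were other scalings, pseudocounts and filters, a fit to 6 arrays, no trend, the replicate block and each replicate left out.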

Additional observations from a re-analysis of the deposited data

Results flagged for a closer look

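Against the mean of CL11, IP14D-1 and IP20D-3, 20 genes were picked out because their level in IP14D-101 differed from the mean of the other lines, by the contrast between lines in limma. All had an adjusted p under 0.05. They are the 10 largest differences each way by the bounded value among genes whose IP14D-101 arrays did not overlap those of the other lines. Predicted genes were passed over. Gata6 and Dab2, with larger differences than some listed here, were left out. Their IP14D-101 arrays lay below those of CL11 and above those of IP14D-1 and IP20D-3, and so within the range of the other lines. Values are log2 IP14D-101 minus the other lines. The higher ones were Stra8 (2.55), Pdgfra (3.35), Hal (2.05), Zfp42 (1.87), Sdc4 (1.81), Igsf21 (1.75), Lefty1 (1.64), Hpdl (1.54), Cracr2b (1.50) and Trh (1.45). The lower ones were Cd99 (-3.73), Mid1 (-3.29), Apoc2 (-3.95), S100a6 (-2.24), Ankrd31 (-4.18), Grb10 (-2.16), Fst (-2.49), Atf3 (-2.08), Taf15 (-1.97) and Rgcc (-1.96). For Pdgfra, Cd99, Apoc2, Ankrd31 and Fst 1 side lay below background, so these differences are no measured fold. In Pdgfra, Hal, Igsf21, Hpdl, Cracr2b, Mid1, Atf3 and Taf15 the mean of CL11 lay within 1 log2 of that of IP14D-101, so these differences lie mostly against IP14D-1 and IP20D-3.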

How the results depend on the processing

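Of 308 genes named against MEF 284 were called. None of these changed sign in any setting tried, and 281 were called in every setting in which they were tested. Of the 24 not called 15 changed sign in some setting, among them Actb and Myc, which passed with the opposite sign without scaling (-0.52 and -0.50 log2). Also 10 of the 24 were called in some other setting: besides Actb, Myc, Fancb, Hand2 and Shmt2, these were Smad2, Tpm3 and Pacsin3 (lower without scaling, -0.69, -0.67 and -0.81), Nt5e (higher with arrays scaled to their median, 0.79) and Pappa2 (lower with a pseudocount of 1000, -1.02). Without scaling, 5626 probe sets and 3269 genes were higher than in MEF and 16221 probe sets lower. Leaving out 1 replicate gave 9238 to 9818 probe sets and 5194 to 5324 genes higher, and 9458 to 10611 probe sets and 4030 to 4239 genes lower. With the replicate number as a block, 9750 probe sets were higher and 10689 lower. Against the other lines, 7044 probe sets were higher and 2687 lower with arrays scaled to their median, and 922 were higher without scaling. Leaving out 1 replicate gave 2393 to 3383 higher and 3432 to 5380 lower, the last count being lowest without IP14D-101 replicate 3. The cause was not tested. Genes at least 8-fold changed numbered 453 higher and 623 lower with background at the 75th percentile of olfactory receptor values, and 163 and 304 at their maximum. Of 656 list medians, a count that includes those of the main setting, 58 moved by 0.5 log2 or more from the main value. Differences near background rest on few bright signals, and folds against it are bounds.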
